A study of Homo sapiens with 16 samples.

Results

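PP242 blocks the kinase mTOR. The measure described here is the change it made in the share of each mRNA that sat on polysomes, in MIA PaCa-2 cells. MIA PaCa-2 is an established human pancreatic cancer cell line. Cells received 2.5 µM PP242 or the DMSO vehicle for 12 h, and RNA was taken from the cytosol and from pooled sucrose-gradient fractions holding mRNA with more than 3 ribosomes. The 4 groups were cytosolic vehicle, polysome vehicle, cytosolic PP242 and polysome PP242, with replicate numbers 1 to 4 in each, so 16 arrays in all. The effect of PP242 on polysome association was taken from all 16 arrays as a double difference for each replicate number: polysome minus cytosolic level with PP242, minus the same difference with vehicle. It was computed for 19775 genes, which are all the genes measured, each through the probe set with the highest mean level. A value of 1 on this log2 scale is a 2-fold gain of the polysome level over the cytosolic level relative to the other mRNAs. A loss of polysomes shared by all mRNAs cannot be seen in these values.

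mTOR complex 1 phosphorylates the 4E-BP proteins, which otherwise hold the cap-binding factor eIF4E away from mRNA, and it acts on LARP1, which binds mRNAs that begin with a pyrimidine run. mRNAs with such a 5′ terminal oligopyrimidine (TOP) start encode ribosomal proteins and translation factors, and they are known for leaving polysomes when mTOR is blocked. The mRNAs encoded in mitochondrial DNA are translated inside mitochondria by mitochondrial ribosomes and not by the cytosolic ribosomes that mTOR complex 1 regulates.

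The start of the transcript is therefore shown for 4 TOP mRNAs and for 4 mRNAs from the top and the bottom of the association effect. Each stretch runs 5′ to 3′ over 20 bases before and 20 bases from the annotated start, from RefSeq on GRCh38.p14, and capitals mark a pyrimidine run that begins at the start with C followed by at least 4 C or T. This run is found at the start of 1104 of 27305 promoters in the RefSeq table (4.04%). EEF2 lies at chr19:3985444-3985483 (minus strand), RPS6 at chr9:19380217-19380256 (minus), TPT1 at chr13:45341164-45341203 (minus) and NPM1 at chr5:171387829-171387868 (plus). SKIC3 lies at chr5:95554958-95554997 (minus), YES1 at chr18:812223-812262 (minus), CDK7 at chr5:69234866-69234905 (plus) and SLC3A2 at chr11:62881679-62881718 (plus).
EEF2: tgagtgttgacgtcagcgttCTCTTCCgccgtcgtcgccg
RPS6: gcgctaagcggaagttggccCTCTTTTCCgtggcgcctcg
TPT1: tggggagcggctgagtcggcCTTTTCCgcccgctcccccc
NPM1: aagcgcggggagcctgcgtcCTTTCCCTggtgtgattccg
SKIC3: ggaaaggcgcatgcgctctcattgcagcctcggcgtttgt
YES1: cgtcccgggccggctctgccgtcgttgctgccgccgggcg
CDK7: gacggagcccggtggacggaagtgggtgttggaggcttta
SLC3A2: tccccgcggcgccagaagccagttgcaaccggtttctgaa
The first 4 hold a run at the annotated start and the last 4 hold none there. The start used in these cells was not measured.

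The 4 replicate numbers did not weigh alike. The cytosolic PP242 arrays were the most variable group, with a median SD of 0.245 per gene against 0.122 to 0.159 in the other groups, and cytosolic PP242 arrays 2 and 4 got the lowest array weights (0.36 and 0.251). The SD of the double difference over genes was 0.465 in number 2 and 0.486 in number 4, against 0.3 in number 1 and 0.299 in number 3. Across the 19775 genes the double differences of numbers 2 and 4 correlated at r = 0.57, while the other pairs of numbers gave 0.13 to 0.33. Values are therefore given by number, and the main class medians are repeated without cytosolic PP242 arrays 2 and 4. Cell line markers were present in every array: the keratins KRT8 and KRT18 and vimentin (VIM) lay between 11.13 and 14.4, while the epithelial adhesion gene EPCAM stayed between 2.45 and 3.21. Of the fibroblast markers, COL1A2 was high at 10.56 to 12.61, and DCN and LUM were at or below 5.45.

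Which mRNAs shifted? Without pairing arrays by number, limma called 0 of 19775 genes at a Benjamini-Hochberg adjusted p under 0.05 (0%), and the smallest adjusted p was 0.3997. At an unadjusted p under 0.05 it gave 802 genes higher (4.06%) and 948 lower (4.79%), together 8.85%. All 4 double differences lay above 0 for 11.3% of the genes and below 0 for 13.8%. Taken as 4 double differences per gene and tested against 0 with limma (the paired form), 704 genes were called higher (3.56%) and 229 lower (1.16%). Of the 9657 genes with a mean level of at least 6, 6.16% were called higher and 1.28% lower. Those shares are the closer comparison for classes of bright genes. The labels do not say that a number marks a shared culture, and an exact sign-flip test on 4 values cannot go below p = 0.125. In the paired form with limma, 0 genes were called from numbers 1 and 3 alone (at an unadjusted p under 0.05, 1128 were higher and 488 lower), against 2185 from numbers 2 and 4 alone (924 higher and 1261 lower, so the excess of higher calls was not found there). The paired calls were 170 without number 2 and 150 without number 4. As an alternative, the polysome level of each gene was regressed on the cytosolic level of the same number with treatment as a term, and named genes whose sign this turned are given with that value below. This fit sets the weight of the cytosolic level from the data, while the double difference fixes it at 1. With a weight near 0 it returns about the polysome effect alone, and DBF4 gave -0.96 for both. The weight can also be below 0, and the value then lies on the far side of the polysome effect from the double difference. PCNA, with a polysome effect of -1.89, is such a gene. A turned sign therefore does not by itself show an opposite shift in association. The verbs rose and fell are kept below for changes within a pool, and "called" means the paired form unless stated.

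The called genes differed in which pool moved. Over the 704 genes called higher, the median effect of PP242 was -0.6 in cytosolic RNA and 0.12 on polysomes. In the test of each pool, 322 of them fell in the cytosol (7.91% of all genes did) and 91 rose on polysomes (6.81% of all genes). Over the 229 called lower, the medians were 0.37 in the cytosol and -0.25 on polysomes, with 53 that rose in the cytosol (8.54% of all genes) and 50 that fell on polysomes (6.55%). These counts share their arrays with the association effect and are a description. The median double difference of the genes called higher was 0.42 in numbers 1 and 3 and 0.99 in numbers 2 and 4. For those called lower it was -0.38 and -0.81. Many of these genes have further probe sets that were not used for the call. Of 1276 other probe sets of the genes called higher, 61.1% had a positive effect, and of 194 of the genes called lower, 69.1% had a negative one. Among those with a mean level of at least 6 the shares were 67.2% of 461 and 80% of 40. The same shares over all probe sets are not given here, so these have no background to be read against. With the mean of all probe sets in place of the brightest, 37 genes were called higher and 6 lower.

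RNAs encoded in mitochondrial DNA had the highest association effect of the classes described here. Of 13 genes listed, 7 were measured, and their median association effect was 0.98, against -0.04 over all genes. The class median was 0.59, 0.78, 0.88 and 1.46 in numbers 1 to 4. All 4 double differences were above 0 for 7 of 7 members, against 11.3% of all genes, and 6 of 7 were called higher, against 3.56%. Without cytosolic PP242 arrays 2 and 4 the median was 0.78.

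COX2, a catalytic subunit of cytochrome c oxidase, had polysome levels of 12.45, 12.77, 12.68 and 13.14 with vehicle and 13.21, 13.39, 13.52 and 14.17 with PP242. Its cytosolic levels were 14.42, 14.43, 14.44 and 14.46 with vehicle and 14.49, 14.28, 14.46 and 14.21 with PP242. The polysome groups did not overlap, while the cytosolic groups did, and the cytosolic levels lay close to 14.61, the highest value on any array. COX2 rose on polysomes by 0.81 ± 0.16 (SE, n = 4 per group, limma adjusted p = 0.001836), and its association effect was 0.89 ± 0.11 (paired form, adjusted p = 1.02e-04).

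ND4, a subunit of complex I, stood at 11.21, 11.34, 11.10 and 11.71 on polysomes with vehicle and at 12.03, 12.13, 12.39 and 13.03 with PP242. In the cytosol it stood at 14.19, 14.22, 14.29 and 14.36 with vehicle and at 14.42, 14.23, 14.51 and 14.22 with PP242. As for COX2, the polysome groups were apart and the cytosolic groups overlapped. ND4 rose on polysomes by 1.06 ± 0.17 (limma adjusted p = 2.52e-04), with an association effect of 0.98 ± 0.13 (paired form, adjusted p = 1.35e-04).

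COX3, another oxidase subunit, had the highest association effect of the named genes, 1.65 ± 0.17 (paired form, adjusted p = 2.01e-05). Its polysome levels were 8.02, 8.17, 7.45 and 8.69 with vehicle and 8.70, 8.99, 9.32 and 9.15 with PP242. Its cytosolic levels were 10.35, 9.80, 9.73 and 9.73 with vehicle and 10.09, 9.02, 9.90 and 7.84 with PP242. The cytosolic PP242 arrays 2 and 4 were the low ones, and the effect without them was 0.87. ATP6, a subunit of the ATP synthase, gave double differences of 0.88, 1.35, 0.99 and 2.14, and 0.85 without those arrays.

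ND2, also of complex I, gave 0.52, 0.86, 0.88 and 1.72, and COX1, the other catalytic oxidase subunit, gave 0.05, 0.45, 0.57 and 0.95. ND6, encoded on the opposite strand, was the member not called (0.36, 0.14, 0.09 and 1.12, paired form, adjusted p = 0.1322). On polysomes alone ATP6, COX1, COX2 and ND4 rose, against 6.81% of all genes. In the cytosol the 7 effects ran from -0.69 for COX3 to 0.08 for ND4, and the smallest adjusted p in limma was 0.1962, for ND6. With vehicle the members were on balance low on polysomes, with a median of -1.82 for polysome minus cytosolic level. Near-identical nuclear copies of mitochondrial genes may share these probes.

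**Figure D1:**
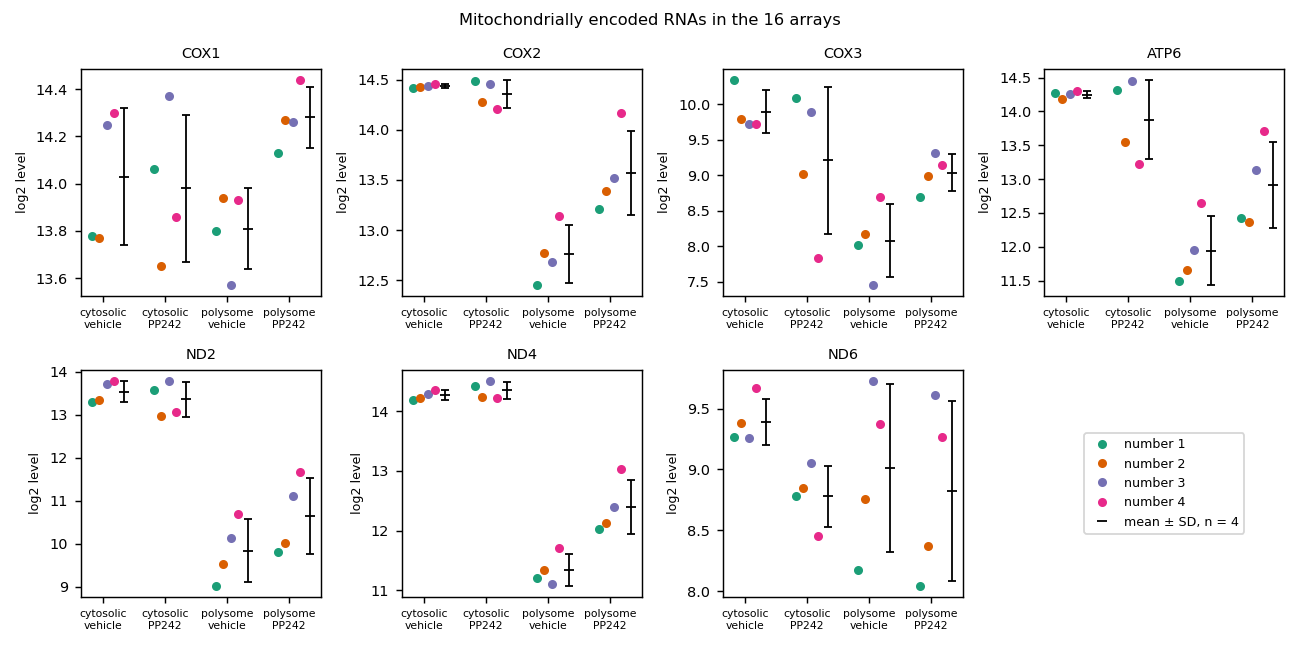
Log2 level of each mitochondrially encoded RNA (vertical axis) in each of the 16 arrays by group (horizontal axis); points are arrays, colours are replicate numbers, and black marks are the mean ± SD of 4 arrays. For COX2 and ND4 all 4 polysome PP242 arrays lie above all 4 polysome vehicle arrays.

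Nuclear-encoded parts of the same machinery did not move with them. The 72 nuclear-encoded subunits of the respiratory chain had a median association effect of -0.02, with medians of 0.06, -0.16, 0.22 and -0.27 by number. Of these, 3 were called higher (4.17%, against 3.56% of all genes) and 0 lower. With a mean level of at least 6 the share called higher was 4.23%, against 6.16% of all genes at that level. The 3 were NDUFA5 of complex I (1.22 ± 0.21 in the double differences), COX7A2 of cytochrome c oxidase (0.47) and ATP5F1E of the ATP synthase (0.43). ATP5F1E was even across numbers at 0.41, 0.42, 0.40 and 0.48, while NDUFA5 ranged from 0.07 in number 3 to 2.06 in number 4 and had a second probe set of opposite sign. NDUFA5 turned to -0.34 in the regression on cytosolic levels. The 54 matrix enzymes and import factors had a median of -0.06, with 3 called each way (5.56%, against 3.56% higher and 1.16% lower of all genes). For the 52 with a mean level of at least 6 the share was 5.77% each way, against 6.16% and 1.28%. TOMM40, the channel of the outer membrane import complex, gave -0.34, -0.95, -0.41 and -0.99, and fell on polysomes by 0.72 (limma adjusted p = 0.02291). VDAC2, a porin of the same membrane, fell on polysomes by 0.58 (adjusted p = 0.002825) with an association effect of -0.58.

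The class medians of TOP mRNAs lay close to that of all genes. The 53 cytosolic ribosomal protein mRNAs measured had a median association effect of -0.04, the same as all genes, and 0 of them were called higher or lower in the paired form or without pairs. At an unadjusted p under 0.05 in limma without pairs, 2 were higher and 1 lower. The quartiles were -0.15 and 0.03, and the extremes were RPL36A at -0.47 and RPS25 at 0.42. Both pools were nearly flat, with class medians of -0.03 on polysomes and 0.05 in the cytosol. By number the medians were 0, -0.07, 0 and -0.18.

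RPS6, the ribosomal protein that S6 kinase phosphorylates, had polysome levels of 13.79, 13.79, 13.55 and 13.62 with vehicle and 13.72, 13.87, 13.44 and 13.50 with PP242. Its cytosolic levels were 13.65, 13.61, 13.38 and 13.35 with vehicle and 13.63, 13.42, 13.34 and 13.19 with PP242. The groups overlapped in both pools, and the association effect was 0.05 ± 0.16 (SE, limma without pairs), with a sign that turned under some settings given in the closing section. EEF2, the translocation factor of elongation, stood at 14.01, 13.98, 13.94 and 13.89 on polysomes with vehicle and at 14.30, 14.31, 14.21 and 14.18 with PP242. Those groups did not overlap, but EEF2 was not called on polysomes (0.29 ± 0.10, limma adjusted p = 0.06871) or in association (0.32, paired form, adjusted p = 0.1004). TPT1, a TOP mRNA for the tumour protein TCTP, gave 0.14, the poly(A)-binding protein PABPC1 0.06, the elongation factor EEF1A1 -0.09 and the ribosomal protein RPL3 -0.32, none called. The ribosomal protein mRNAs lay near the top of the scale, with a median level of 13.63 against a highest value of 14.61 on any array.

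The 26 other TOP mRNAs had a median of -0.09, with 2 called higher (7.69%, against 3.56% of all genes) and 1 lower (3.85%, against 1.16%). All 26 had a mean level of at least 6, where 6.16% of all genes were called higher and 1.28% lower. All 4 double differences were below 0 for 9 of the 26 (34.6%, against 14.5% of all genes at that level). They were above 0 for 3 (11.5%, against 16.1%). The class median lay below that of all genes in 4 numbers, and below that of all genes at that level in 3. NPM1, a nucleolar chaperone of ribosome assembly, gave 0.16, 0.88, 0 and 0.86. TMSB4X, which binds actin monomers, gave 0.15, 0.88, 0.22 and 1.18, and EIF3H, a subunit of initiation factor eIF3, gave -0.04, -0.69, -0.38 and -0.97. In all 3 the large values came from numbers 2 and 4, and NPM1 turned to -0.06 in the regression on cytosolic levels. Grouped by sequence instead of by list, the 639 protein-coding genes with a pyrimidine run at the annotated start had a median of -0.06, against -0.04 over the 13454 protein-coding genes with a promoter entry. Of the 639, 27 were called higher (4.23%) and 6 lower (0.939%), against 4.24% and 1.11% of the 13454. The association effect was also flat over the base composition of the first 50 transcribed bases, with medians of -0.03, -0.04, -0.03, -0.05 and -0.04 over 5 equal groups from the poorest in G and C to the richest.

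**Figure D2:**
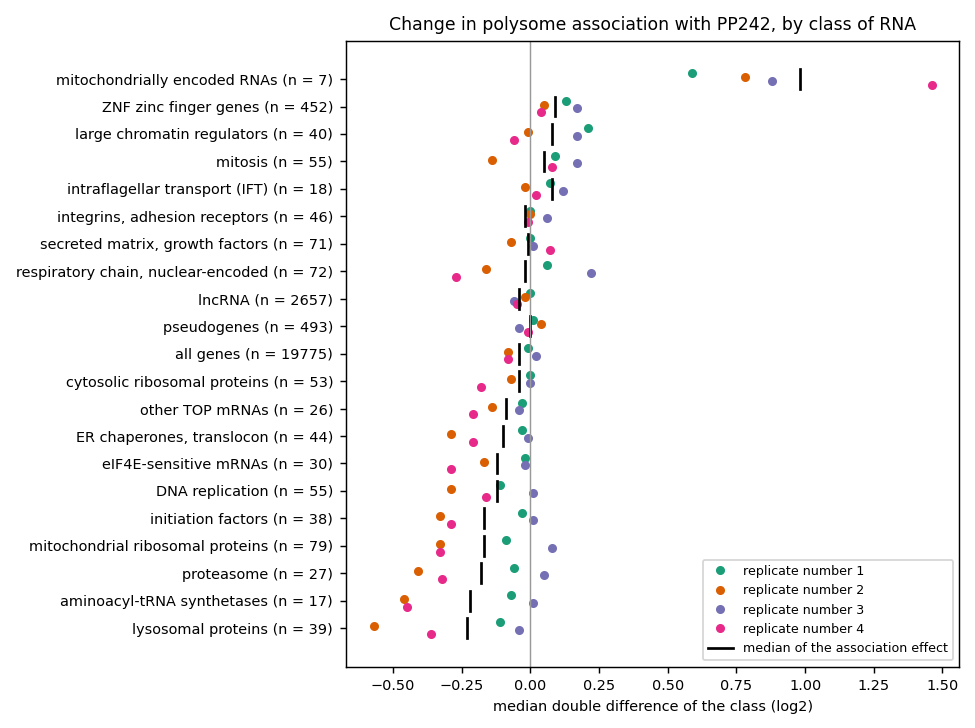
Median double difference (log2, horizontal axis) of each class of RNA, with the number of genes measured in brackets; coloured points are the 4 replicate numbers and black bars the median of the association effect over the members. The mitochondrially encoded RNAs stand at 0.98, the cytosolic ribosomal proteins at -0.04, and the classes at the bottom have their low values in numbers 2 and 4.

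Zinc finger genes had a slightly higher association effect than all genes, by an even amount in the 4 numbers. The 452 genes with a ZNF symbol, most of which encode DNA-binding proteins with C2H2 fingers, had a median of 0.09. Their medians of 0.13, 0.05, 0.17 and 0.04 by number lay 0.14, 0.13, 0.15 and 0.12 above those of all genes. Of them, 44 were called higher (9.73%, against 3.56% of all genes) and 4 lower (0.885%, against 1.16%). Among the 217 with a mean level of at least 6, 29 were called higher (13.4%, against 6.16% of all genes at that level) and 0 lower. Of the 217, 57 lay above 0 in all 4 numbers (26.3%, against 16.1%) and 10 lay below 0 (4.61%, against 14.5%). Without cytosolic PP242 arrays 2 and 4 the class median was 0.1.

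ZNF107 had cytosolic levels of 6.58, 7.08, 7.82 and 7.59 with vehicle and 4.77, 4.92, 6.95 and 5.31 with PP242. On polysomes it had 5.76, 5.85, 5.99 and 5.95 with vehicle and 5.10, 5.17, 6.39 and 5.15 with PP242. In the cytosol PP242 array 3 lay within the vehicle range and the other PP242 arrays below it. On polysomes PP242 array 3 lay above the vehicle range and the others below it. Its double differences were 1.15, 1.48, 1.27 and 1.48 (mean 1.34 ± 0.16, paired form, adjusted p = 6.56e-05), and ZNF107 fell in the cytosol by 1.78 ± 0.38 (limma adjusted p = 0.00303). ZNF850 gave 0.31, 2.14, 1.14 and 1.20, and ZNF138 gave 1.10, 1.70, 0.78 and 0.66. All 3 fell in the cytosol and were not called on polysomes, and ZNF138 turned to -0.12 in the regression on cytosolic levels. The class as a whole had pool medians of 0.11 on polysomes and 0.05 in the cytosol.

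Genes that span more of the genome had higher association effects. No transcript or protein lengths were used here, so length means the genomic span of the gene with introns. Nuclear protein-coding genes were cut into 5 equal groups by span, and from the shortest to the longest group the median effect was -0.09, -0.07, -0.05, 0 and 0.02. In the shortest group (median 4.37 kb) 1.12% were called higher and 1.51% lower. In the next to longest group (59 kb) 6.6% were called higher and 0.909% lower, and in the longest (166 kb) 4.51% and 0.666%. Across 9309 genes with a mean level of at least 6, Spearman's rho between span and effect was 0.225. It was 0.255, 0.208 and 0.197 in numbers 1, 2 and 4 but -0.026 in number 3, so the gradient was not shared by all numbers. Without cytosolic PP242 arrays 2 and 4 the medians of the shortest and longest groups were -0.02 and 0.04, against 0 for all genes. Genes are not independent replicates, and these values describe the genes on these arrays. The ZNF genes had a median span of 23.5 kb, close to 24.7 kb over all genes, and the mitochondrially encoded RNAs 0.784 kb, so neither class is one of large genes.

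**Figure D3:**
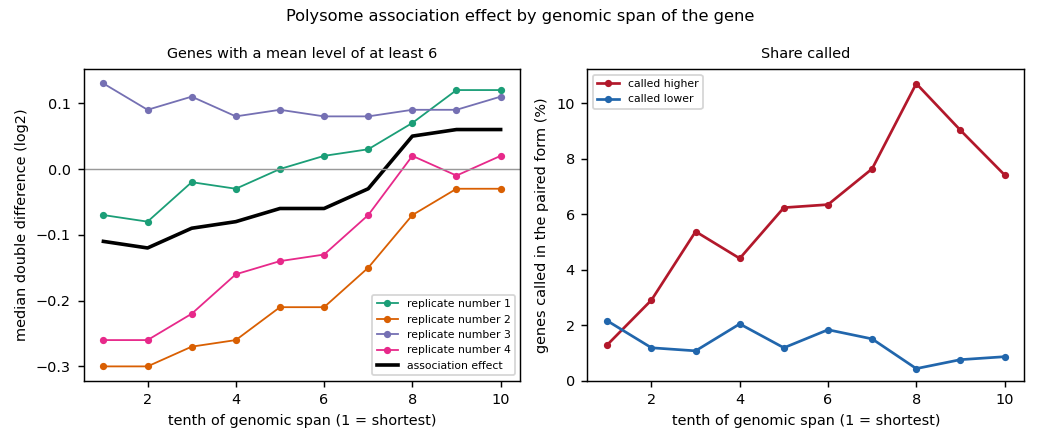
Left, median double difference (log2) of nuclear protein-coding genes with a mean level of at least 6, in 10 equal groups by genomic span from shortest to longest, for each replicate number (colours) and for the association effect (black). Right, percent of the genes in each group called higher or lower in the paired form; the share called higher runs from 1.29% in group 1 to 10.7% in group 8.

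Large chromatin regulators, mitosis genes and ciliary transport genes held the highest shares of called genes among the nuclear classes described here. Of 40 histone-modifying and chromatin-remodelling genes, 6 were called higher (15%, against 3.56%) and 1 lower, with a class median of 0.08 and of 0.16 without cytosolic PP242 arrays 2 and 4. Among the 38 with a mean level of at least 6, 15.8% were called higher, against 6.16% of all genes at that level. BAZ1A, a chromatin-assembly remodelling subunit, gave 0.23, 1.22, 0.35 and 1.07, the remodeller CHD1 gave 0.75, 1.00, 0.32 and 0.70, and the histone methyltransferase KMT2D gave 0.19, 1.10, 0.61 and 0.91. BAZ1A turned to -0.16 in the regression on cytosolic levels. The median span of the class was 125 kb.

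Of 55 mitosis genes, 11 were called higher (20%, against 3.56% of all genes) and 0 lower, with effects from 0.5 to 0.83. For the 54 with a mean level of at least 6 the share was 20.4%, against 6.16% of all genes at that level. The class median of the PP242 effect was -1.11 on polysomes and -1.21 in the cytosol. MAD2L1, a spindle checkpoint protein, had cytosolic levels of 10.30, 10.01, 10.12 and 10.08 with vehicle and 8.54, 7.80, 8.53 and 6.95 with PP242. On polysomes it had 10.45, 10.74, 10.16 and 10.64 with vehicle and 9.14, 9.44, 8.93 and 9.12 with PP242. The groups were apart in both pools, with the lower PP242 levels in the cytosol. MAD2L1 fell by 2.17 ± 0.25 there and fell by 1.34 ± 0.25 on polysomes. The other called members named here were CENPK (0.82), a kinetochore protein, and NUF2 (0.72), which couples kinetochores to microtubules. All 3 turned sign in the regression on cytosolic levels, to -1.57 for MAD2L1, -1.26 for CENPK and -0.97 for NUF2. The class median was 0.05, and it was 0.14 without cytosolic PP242 arrays 2 and 4 and 0.19 with quantile normalization over all 16 arrays.

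Of 18 genes with an IFT symbol, subunits of the transport trains of cilia, 4 were called higher (22.2%, against 3.56% of all genes) and 0 lower: IFT25, IFT57, IFT74 and IFT80, the last at 1.63 with 2 of its 4 probe sets of the same sign. For the 15 IFT genes with a mean level of at least 6 the share was 26.7%, against 6.16% of all genes at that level. DNA replication genes, with pool medians of -1.35 on polysomes and -1.25 in the cytosol, had a median association effect of -0.12, with 3 of 55 called higher (5.45%, against 3.56%) and 1 lower (1.82%, against 1.16%). For the 53 with a mean level of at least 6 the share called higher was 5.66%, against 6.16% of all genes at that level. Of the 3 called higher, DUT, which removes dUTP, was even across numbers at 0.41, 0.72, 0.59 and 0.52. PCNA, the sliding clamp, gave 0.16, 0.80, 0.19 and 1.18, and DBF4, the activator of the CDC7 kinase, 0.80, 0.31, 0.30 and 1.14. The regression on cytosolic levels turned PCNA to -2.9 and DBF4 to -0.96.

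Several classes for protein synthesis and breakdown had low medians, mainly in numbers 2 and 4. The 39 lysosomal protein mRNAs had a median of -0.23 and medians of -0.11, -0.57, -0.04 and -0.36 by number, with 1 called higher and 2 lower (5.13%, against 1.16%). The 17 cytosolic aminoacyl-tRNA synthetases had -0.22 (-0.07, -0.46, 0.01 and -0.45), with 0 called higher and 1 lower (5.88%, against 1.16%). The 27 proteasome subunits had -0.18 (-0.06, -0.41, 0.05 and -0.32), with none called in the paired form or in limma without pairs, where 0 had an unadjusted p under 0.05. The 79 mitochondrial ribosomal proteins had -0.17 (-0.09, -0.33, 0.08 and -0.33), with 1 called higher (1.27%, against 3.56%) and 3 lower (3.8%, against 1.16%). Without cytosolic PP242 arrays 2 and 4 these medians became -0.1, -0.01, 0.04 and 0.04. Low medians were not limited to such classes, since the 19 cholesterol synthesis genes had -0.22 (-0.12, -0.39, 0.03 and -0.32).

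The called members, named because they were called, also had larger values in numbers 2 and 4 on average. CTSA, a lysosomal protective carboxypeptidase, gave -0.47, -1.07, -0.10 and -0.49, and it rose in the cytosol by 0.94 (limma adjusted p = 4.99e-05) and on polysomes by 0.41 (adjusted p = 0.04303). ATP6V0D1, a subunit of the proton pump of lysosomes, gave -0.32, -0.81, -0.35 and -0.43 and fell on polysomes by 0.66 (adjusted p = 0.001702). FARSB, a subunit of phenylalanyl-tRNA synthetase, gave -0.25, -0.84, -0.30 and -0.89. The mitochondrial ribosomal proteins MRPL16 and MRPS2 gave means of -0.52 and -0.58, while MRPL19 went the other way at 0.61 with -0.06 in number 3. Among 38 initiation factors (median -0.17), 2 were called each way (5.26%, against 3.56% higher and 1.16% lower): EIF1AX at 1.19 and EIF3A at 0.90 higher, EIF3G at -0.58 and EIF3H at -0.52 lower, so subunits of eIF3 lay on both sides. For the 36 with a mean level of at least 6 the share was 5.56% each way, against 6.16% higher and 1.28% lower. The regression on cytosolic levels turned CTSA to 0.6, MRPL19 to -0.67 and EIF1AX to -0.33.

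By location of the product, mRNAs translated at the endoplasmic reticulum did not form a single group. The 44 chaperones and translocon parts had a median of -0.10, with 5 called higher (11.4%, against 3.56% of all genes) and 0 lower. All 44 had a mean level of at least 6, where 6.16% of all genes were called higher. The class median lay below that of all genes in each number, and 17 of the 44 were below 0 in all 4 numbers (38.6%, against 13.8%) while 9 were above (20.5%, against 11.3%). SRP9, of the signal recognition particle, gave 0.53, 1.02, 0.06 and 1.03, SSR1, of the translocon, 0.32, 0.62, 0.14 and 1.84, and STT3B, of the glycosylating enzyme, 0.52, 0.57, 0.03 and 1.24. SRP9 turned to -0.91 and STT3B to -0.11 in the regression on cytosolic levels. The 71 secreted matrix and growth factor genes had a median of -0.01 and the 46 integrins and adhesion receptors -0.02, with 2 and 3 called higher (2.82% and 6.52%, against 3.56% of all genes). LTBP2, a matrix protein of microfibrils, gave 0.53, 0.48, 1.03 and 0.31 and rose in both pools, by 1.71 on polysomes and 1.13 in the cytosol. ITGB8, an integrin subunit, rose on polysomes by 1.79 (limma adjusted p = 0.001085), with an association effect of 0.92 that 2 of its 5 probe sets shared in sign. The keratins KRT8 and KRT18, of the epithelial cytoskeleton, were called lower at -0.59 and -0.38. Their cytosolic effects were 0.86 and 0.78, and their polysome effects were 0.26 and 0.39. Both turned sign in the regression on cytosolic levels, to 0.13 and 0.17. Replication-dependent histones, whose mRNAs lack a poly(A) tail, had a median of -0.07, with H1-2, H4C5 and H4C9 called lower (8.57%, against 1.16% of all genes) at -0.69, -0.61 and -0.69. Most of the 35 were dim, with a median level of 4.76. The 8 with a mean level of at least 6 had a median of 0.02, with 2 called lower. The highest group mean of H4C5 was 5.99.

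The median of all lncRNAs was that of all genes, and the brighter ones lay slightly above it. The 2657 lncRNAs had a median of -0.04, with 24 called higher (0.903%) and 28 lower (1.05%), and the 493 pseudogenes had 0, with 12 called higher (2.43%) and 5 lower (1.01%). Over all genes the shares were 3.56% higher and 1.16% lower. Most lncRNAs were dim, with a median level of 3.8, and among the 233 with a mean level of at least 6 the shares called were 4.72% and 1.29%, against 6.16% and 1.28% of all genes at that level. The median of those 233 was 0.05, and by number it lay 0.07, 0.19, 0.04 and 0.09 above that of all genes at that level. JPX, a non-coding RNA of the X inactivation centre, had polysome levels of 5.21, 5.82, 5.54 and 5.19 with vehicle and 6.55, 7.23, 7.85 and 6.15 with PP242. Its cytosolic levels were 7.26, 6.82, 7.61 and 7.51 with vehicle and 7.09, 7.44, 8.75 and 7.76 with PP242. Only the polysome groups were apart, and JPX rose there by 1.51 ± 0.33 (limma adjusted p = 0.004207), with an association effect of 1.04 ± 0.17 (paired form, adjusted p = 0.001468). NORAD, a cytoplasmic RNA that binds Pumilio proteins, rose on polysomes by 1.09 ± 0.22 (adjusted p = 0.001957), and its double differences were 0.87, 0.86, 0.44 and 1.66. CRNDE gave 0.84, 1.68, 0.73 and 1.65 and fell in the cytosol by 1.45. The pseudogene RNAs CA5BP1, DUXAP10 and ZNF271P were called higher at 0.97, 1.07 and 0.82, and their probes may also detect the parent genes.

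mRNAs described as sensitive to eIF4E, the cap-binding factor, were split. Their 30 measured members had a median of -0.12, with 2 called higher and 2 lower (6.67% each, against 3.56% and 1.16%). For the 25 with a mean level of at least 6 the share was 8% each way, against 6.16% higher and 1.28% lower. CCND3, cyclin D3, had polysome levels of 8.81, 8.76, 9.08 and 9.16 with vehicle and 7.73, 7.71, 7.85 and 7.84 with PP242. Its cytosolic levels were 8.21, 8.32, 8.56 and 8.56 with vehicle and 7.64, 7.86, 7.61 and 8.01 with PP242. The groups were apart in both pools, and CCND3 fell by 1.17 ± 0.13 on polysomes and by 0.63 ± 0.13 in the cytosol, with double differences of -0.51, -0.59, -0.28 and -0.77. HNRNPF, a splicing factor, was the other member called lower (-0.38, -0.74, -0.55 and -0.34). HIF1A, the hypoxia transcription factor, was called higher at 0.65 ± 0.15 and fell in the cytosol by 0.85, with 0.28 in numbers 1 and 3 and 1.02 in numbers 2 and 4. HIF1A turned to -0.27 in the regression on cytosolic levels. The other was CD44, a hyaluronan receptor, at 0.43, a sign that 3 of its 13 probe sets shared.

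Of 20 single genes in a panel tied to mTOR, eIF4E and TOP mRNAs, HIF1A was called higher and CCND3 lower (5% each, against 3.56% and 1.16% of all genes). All 20 had a mean level of at least 6, where 6.16% of all genes were called higher and 1.28% lower. The association effect was -0.13 for the transcription factor MYC, which rose by 0.83 on polysomes and 0.96 in the cytosol, -0.15 for cyclin D1 (CCND1), -0.29 for the polyamine enzyme ODC1, -0.21 for the repressor EIF4EBP1 itself, 0.19 for the growth factor VEGFA and 0.19 for TFAM, which packages mitochondrial DNA. It was -0.30 for the survival protein MCL1 and -0.11 for BIRC5 (survivin). EIF4E gave 0.21, 0.21, 0.40 and 0.47, all above 0, and was not called (0.32, paired form, adjusted p = 0.2109; -0.57 in the regression). DDIT4, which restrains mTOR complex 1, gave -0.25, the autophagy receptor SQSTM1 -0.25 and the endoplasmic reticulum chaperone HSPA5 0.20. TFAM and HSPA5 turned to -0.11 and -0.2 in the regression. Among 42 mTOR pathway genes 1 was called higher (2.38%, against 3.56%) and 0 lower (against 1.16%): FNIP1, a folliculin partner, at 0.77, 0.89, 0.54 and 1.29.

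Amino acid response genes held one of the 12 lowest association effects named. SLC3A2, the heavy chain of amino acid exchangers, had polysome levels of 8.91, 8.99, 9.80 and 9.78 with vehicle and 8.50, 8.55, 8.47 and 8.58 with PP242. Its cytosolic levels were 8.23, 8.45, 9.35 and 9.42 with vehicle and 8.38, 9.04, 8.37 and 9.19 with PP242. The polysome groups were apart, the cytosolic groups overlapped, and arrays 1 and 2 lay below 3 and 4 with vehicle in both pools. SLC3A2 fell on polysomes by 0.85 ± 0.27 (limma adjusted p = 0.04285), with an association effect of -0.73 ± 0.15 (paired form, adjusted p = 0.007347). SLC38A2, an amino acid transporter of the same list, was called higher at 0.37, 0.48, 0.45 and 0.83. Of 31 genes on the list 1 was called each way (3.23%, against 3.56% higher and 1.16% lower of all genes), and the median was -0.13.

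The 12 highest association effects among called genes with a group mean of at least 6 and 4 double differences above 0 ran from 1.31 to 1.65. YES1, a Src-family kinase, had cytosolic levels of 9.95, 10.02, 10.23 and 10.19 with vehicle and 9.18, 8.45, 10.39 and 8.81 with PP242. On polysomes it had 9.19, 9.40, 9.41 and 9.97 with vehicle and 9.65, 9.75, 10.29 and 10.27 with PP242. Cytosolic PP242 array 3 lay above every vehicle array, and the other 3 lay below them. The double differences of YES1 were 1.23, 1.92, 0.72 and 1.68, and its effect without cytosolic PP242 arrays 2 and 4 was 0.81.

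SKIC3, a cofactor of RNA degradation by the exosome, gave 1.14, 2.23, 0.62 and 2.59, IFT80 gave 1.16, 2.33, 0.87 and 2.18, and CEP97, a centriole protein, gave 0.69, 2.16, 1.14 and 1.55. BLOC1S6, which helps to build lysosome-related organelles, gave 1.10, 1.59, 0.82 and 1.93 with all 3 probe sets of the same sign. The growth suppressor kinase LATS1 (1.38), the nuclear import receptor KPNA2 (1.34), the EGF receptor ligand epiregulin (EREG, 1.33) and DSEL, of the dermatan sulfate enzymes (1.31), completed the 12 with COX3, ATP6 and ZNF107. For LATS1 1 of 4 probe sets, and for KPNA2 and EREG 1 of 2, had a positive effect, so these 3 rest on the brightest probe set. For YES1 and DSEL 2 of 3 probe sets, and for IFT80 2 of 4, had one. In the regression on cytosolic levels KPNA2 turned to -0.75 and CEP97 to -0.17. Without cytosolic PP242 arrays 2 and 4 the 12 values lay between 0.17 for EREG and 0.97 for ZNF107. Their positive sign is no separate support, because the 12 were chosen with all 4 double differences above 0, numbers 1 and 3 among them. In that setting limma without pairs called 0 of all genes (346 were higher and 288 lower at an unadjusted p under 0.05).

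The 12 lowest effects ran from -0.88 to -0.70. CDK7, the kinase that activates cyclin-dependent kinases and is part of the general transcription factor TFIIH, had cytosolic levels of 9.21, 9.28, 8.94 and 8.97 with vehicle and 9.82, 10.29, 9.41 and 10.06 with PP242. On polysomes it had 9.55, 9.60, 9.35 and 9.47 with vehicle and 9.71, 9.58, 9.14 and 9.43 with PP242. Only the cytosolic groups were apart, and CDK7 rose there by 0.79 ± 0.16 (limma adjusted p = 0.002226), with double differences of -0.45, -1.03, -0.68 and -1.13. TECR, of very-long-chain fatty acid synthesis, differed in kind: its cytosolic groups overlapped and it fell on polysomes by 0.94 ± 0.15 (adjusted p = 2.98e-04). WDR76 fell in both pools, by 1.79 on polysomes and 1.07 in the cytosol.

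The others were the lncRNAs NBAT1 (-0.88) and LINC02012 (-0.70), the membrane protein TMEM151A (-0.80), the tight junction protein CLDN6 (-0.80), the phospholipase PLA2G4F (-0.77), HCRP1 (-0.73), the cyclic AMP phosphodiesterase PDE4A (-0.73) and ASPDH (-0.71). NBAT1, LINC02012, TMEM151A, PLA2G4F, PDE4A and ASPDH were dim and reached a group mean of 6 in cytosolic PP242 only (6.06 to 6.33). That group was the most variable, and a high value there lowers the effect. Their other group means were 4.75 to 5.88. Without cytosolic PP242 arrays 2 and 4 the 12 values lay between -0.67 for HCRP1 and -0.19 for TMEM151A. Their negative sign is likewise no separate support, as all 4 double differences had to be below 0 for a gene to be chosen. Of the 12, TECR, WDR76 and HCRP1 have a second probe set of opposite sign, and so does 1 of the 5 probe sets of PDE4A.

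**Figure D4:**
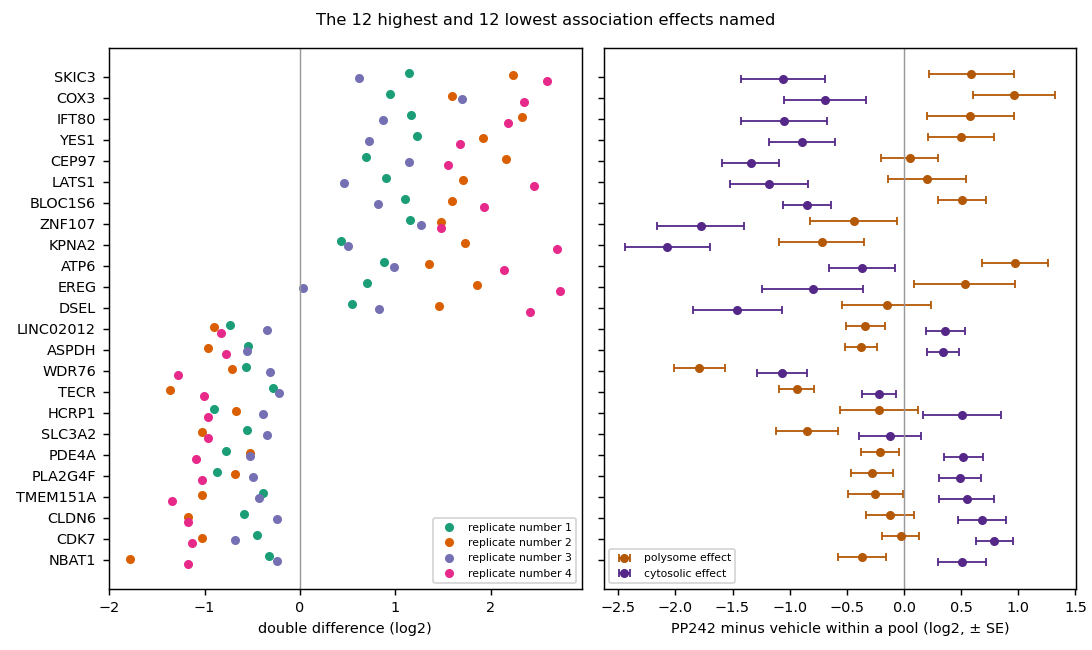
Left, double differences (log2) of the 12 highest and 12 lowest named genes, with colours for replicate numbers. Right, effect of PP242 within each pool (log2, ± SE of the limma contrast, n = 4 per group); most genes at the top had a negative cytosolic effect, while COX3 and ATP6 had a polysome effect near 1.

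**Figure D5:**
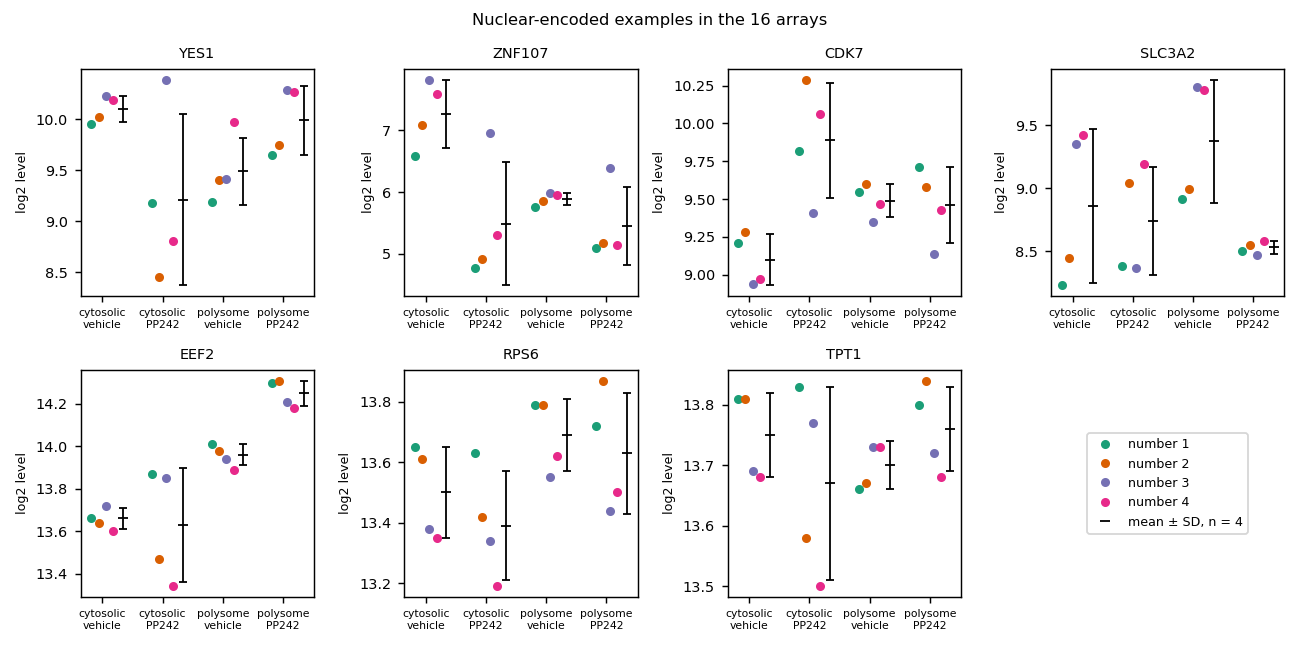
Log2 level of 7 nuclear-encoded genes (vertical axis) in the 16 arrays by group; points are arrays, colours are replicate numbers, and black marks are the mean ± SD of 4 arrays. The polysome groups of SLC3A2 are apart, the cytosolic groups of CDK7 are apart, and RPS6 overlaps in both pools.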

How the data were processed

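RNA levels were measured on 16 Affymetrix 3′ arrays, 4 in each of 4 groups. The deposited values are log2 levels, and the submitters' processing notes name RMA as the tool; its version is not given in the sources used here. Array medians were 5 to 5.05 in cytosolic and 4.57 to 4.63 in polysome RNA, so the pools appear to have been scaled apart and effects are relative to the other mRNAs of a pool. Of 54613 probe sets, 41091 list 1 gene in the platform's gene table, 1801 list several and were left out, and 11721 are not in that table. The probe set with the highest mean stood for each of 19775 genes. The platform gives intensities and no read depth, so precision rests on 4 arrays per group.

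limma 3.58.1 in R 4.3.3 fitted 1 mean per group with an intensity trend, and the association effect was the contrast of both pools and both treatments. The paired form fitted the mean of the 4 double differences per gene. P-values are two-sided and Benjamini-Hochberg adjusted over all genes, with calls at an adjusted p under 0.05. Errors after ± are standard errors of the paired form for association effects, unless limma without pairs is named, and of the group contrast within a pool. limma pools variance over genes for these errors and for the p-values (prior df 21 in the paired form). They are therefore not the spread of a gene's own 4 double differences, which can be wider. For arrays that share a replicate number, deviations from the group means correlated at 0.026 to 0.51 (median 0.339, 23 of 24 over 0.1). For arrays of different numbers the median was -0.185, with 22 of 72 over 0.1. Same-numbered arrays thus tended to deviate together, but pairing required all 24 to be over 0.1, so the numbers were not treated as pairs in the main test. The paired form is printed because the double difference per number is the measure. The labels do not say whether replicates are separate cultures, and p-values may measure technical spread.

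Members and lists were chosen with earlier results of these data known, and no set test was run. Named genes are the 12 highest and 12 lowest calls with 4 double differences of 1 sign and a highest group mean of at least 6, up to 3 called members of a list, and 20 panel genes. As limma without pairs called none, the rule was applied to the paired form after seeing the data, and class extremes and genes in counts of 5 or fewer were named after their values were seen. Transcript and protein lengths were not used here; genomic spans came from RefSeq on GRCh38.p14 for 19731 genes. Classes by span hold nuclear protein-coding genes. In tests on simulated data for the association effect, with 50 genes planted per size among 19775, limma without pairs recovered 16%, 58%, 92% and 96% at log2 sizes of 0.5, 1, 1.5 and 2. The paired form recovered 0%, 30%, 88% and 94%. Genes called without being planted were 9 without pairs and 5 in the paired form. The simulation thus favoured the form without pairs, while the measured data gave 0 calls without pairs and 933 in the paired form. The recovery shares therefore hold for the simulated data and are not taken as the power on these arrays. The alternatives were other blocks, normalizations, filters, probe-set rules, array weights, a regression, and leaving out arrays.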

Additional observations from a re-analysis of the deposited data

Results flagged for a closer look

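Of 120 results looked at for a value standing apart among the 4 replicate numbers, 1 was found, and chance alone gives about 1 in 20. For SQSTM1, the autophagy receptor, the double difference of number 2 was -0.55, while the other 3 lay between -0.18 and -0.11.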

How the results depend on the processing

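Fitted to the array levels with the numbering used, limma called 0 genes under a fixed replicate block (smallest adjusted p 0.2371) and a culture block (0.06385). Without the numbering it called 0 under quantile and cyclic loess normalization, median centring, array weights, no intensity trend and a level filter. It also called 0 within numbers 1 and 2, within 3 and 4, and without each replicate (0 to 0). The block by double differences gave 933 calls. The mean of all probe sets gave 1, C4orf46, singled out after its value was seen (1.34 ± 0.16, limma adjusted p = 0.003254). The regression of polysome on cytosolic values gave 686, with 315 higher and 371 lower. The 933 paired calls became 360 with quantile normalization (299 higher, 61 lower), 455 with cyclic loess (378 and 77), 43 with the mean of all probe sets, 0 in numbers 1 and 3 and 2185 in numbers 2 and 4 (924 and 1261), all chosen after seeing the data. Leaving out 1 number gave 150 to 1739.

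Class medians moved by more than their SD over numbers for mitosis genes with quantile normalization (0.19), for the longest group by span with cyclic loess (0.05) and the level filter (0.06), and for lncRNAs with quantile normalization (-0.01), cyclic loess (0.01) and the level filter (0.02). They also moved for the proteasome (0.04), mitochondrial ribosomal proteins (0.04) and other TOP mRNAs (0) without cytosolic PP242 arrays 2 and 4. The cause was not tested. The mitochondrially encoded median ran from 0.69 within numbers 1 and 2 to 1.26 within 3 and 4, and the ZNF median from 0.06 to 0.12.

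Signs of 25 named genes turned in the regression: BAZ1A -0.16, CENPK -1.26, CEP97 -0.17, CTSA 0.6, DBF4 -0.96, EIF1AX -0.33, EIF4E -0.57, GTPBP4 -0.31, HIF1A -0.27, HSPA5 -0.2, KPNA2 -0.75, KRT18 0.17, KRT8 0.13, MAD2L1 -1.57, MRPL19 -0.67, NDUFA5 -0.34, NPM1 -0.06, NUF2 -0.97, PCNA -2.9, SRP9 -0.91, STT3B -0.11, SUCLG2 -0.43, TFAM -0.11, TUBB2A -0.19 and ZNF138 -0.12. With the mean of all probe sets they turned for CD44 (-0.07), EEF1A1 (0.17), HSPA5 (-0.07), ITGB8 (-0.02), MCL1 (0.15), PABPC1 (-0.14), RPS6 (-0.08) and SQSTM1 (0.02). Without cytosolic PP242 arrays 2 and 4 they turned for BIRC5 (0.21), EIF4EBP1 (0.1), KLF10 (-0.06), ODC1 (0.01), RPS6 (-0.04) and VEGFA (-0.12). RPS6 was -0.01 with array weights and within numbers 3 and 4, and ran from -0.03 to 0.09 when 1 replicate was left out. BIRC5 was 0.06 with quantile normalization and ran from -0.24 to 0.03 when 1 replicate was left out. Pairing numbers changed calls only as given above, and the fixed replicate block changed none. Signals near the top of the array scale limit what can be seen for ribosomal protein and mitochondrially encoded RNAs.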
